A study of Mus musculus with 2 samples.

Results

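The genes described here encode the nuclear part of the mitochondrial respiratory chain and of ATP synthase. They were taken by symbol from the RefSeq table of mouse build GRCm38: protein-coding nuclear genes starting with Nduf, Uqcr, Atp5 or Cox4 to Cox8, with Sdha, Sdhb, Sdhc, Sdhd and Cycs. These are 97 of 21779 nuclear protein-coding genes. By complex they are 39 subunit genes of complex I, 8 complex I assembly factors (Ndufaf1 to Ndufaf8), 4 genes of complex II, 8 of complex III, Cycs, 20 of complex IV and 17 of ATP synthase (complex V). Sap130 belongs to the Sin3 complex, a corepressor that carries histone deacetylases. It was mapped by chromatin immunoprecipitation and sequencing (ChIP-seq) in embryonic heart of C57BL/6 mice at embryonic stage E12.5. There was 1 library made with 2 µg of a rabbit Sap130 antibody and 1 input library without antibody, both from heart of the same strain and stage. How many embryos were pooled, if any, is not given in the labels, and a peak list holds no expression by which the tissue could be checked. The stated question was which genes Sap130 targets.

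The respiratory chain passes electrons from NADH (complex I) and succinate (complex II) through complex III and the carrier cytochrome c to oxygen at complex IV, and pumps protons across the inner mitochondrial membrane. ATP synthase uses that gradient to make ATP, on which heart muscle depends. A few subunits, most of them in complex IV, exist as pairs of genes: 1 form used in nearly all tissues and another used in striated muscle, testis, lung or low oxygen.

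The deposited list held 14881 summits (the highest point of each peak) on nuclear chromosomes. Each carried a score in −log10 units (of a p-value, or of a q-value) of up to 428, with a median of 33.3 and an upper quartile of 65.2. Deeper sequencing raises such a score, as does stronger enrichment. It was therefore used to rank summits within this list and is no fold over input. A gene was called marked when a summit lay inside it or within 1000 bp of its first or last base, and its best score is that of the highest such summit. There was no replicate and the depth is unknown, so no test between genes was made. Intervals are exact (Clopper-Pearson) 95% intervals and cover counting error only, over genes that are not independent of each other.

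Nearly all of these genes had a Sap130 summit in reach. Of the 97 genes, 88 were marked (90.7%, interval 83.1 to 95.7), against 55% of all protein-coding genes. The median best score of the marked genes was 51.8 (quartiles 32.1 and 77.4), near the 48.9 of all marked genes (23.9 and 78.6). Thus the genes differed from all protein-coding genes more by how often they were marked than by the scores. Of the 88, 49 were above the median of all marked genes. Counting only summits at or above the median score, 65 genes (67.0%) were marked against 36% of all genes, and with summits at or above the upper quartile 31 (32.0%) against 19.5%. Many of the summits could belong to more than 1 gene: with those in reach of another protein-coding gene left out, 51 members (52.6%, interval 42.2 to 62.8) were marked against 42.4% of all genes. The window mattered little, with the same 88 genes marked at 500 bp (54.4% of all genes) and at 2500 bp (55.9%). By gene ends alone 83 members were marked against 48.4% of all genes. By listed starts alone 74 of 79 were, against 52.2%. Pseudogenes gave a contrast: of 19 named after these genes, among them Atp5k-ps1, Cox7c-ps1, Ndufs5-ps and Uqcrh-ps1, 0 were marked (interval 0 to 17.6), and 0.836% of 10409 pseudogenes of any name were.

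The 9 unmarked genes were of 2 kinds. Ndufb4b and Ndufb4c are short copies (471 and 485 bp) related to Ndufb4, with the nearest summits 33592 and 60939 bp away. The other 7 were Cox7a1, Cox8b, Cox4i2, Cox6b2, Cox7b2, Cox8c and Ndufa4l2, all of them the tissue or condition form of a complex IV gene. With these 9 and Cox6a2 set aside, the other 87 genes were all marked. That follows from leaving out every unmarked gene, so no interval is given for it. No unmarked gene was near the distance limit: the marked genes whose best summit lay farthest outside were Ndufb11 (585 bp), Uqcrh (534 bp) and Ndufs1 (498 bp), while the unmarked gene nearest to a summit was Ndufa4l2, at 5054 bp. For Ndufb4b, Ndufb4c and the pseudogenes the handling of reads with several matches matters, and no source used here gives it.

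In each of the 3 pairs of complex IV the ubiquitous form had the higher score or the only summit. Cox6a1, the form of subunit VIa in most tissues, had a summit of score 80.5 lying 173 bp after its start, in reach of no other gene. Its heart and skeletal muscle counterpart Cox6a2 had 1 summit of score 4.78, 297 bp inside the gene and shared with the neighbouring integrin gene Itgad. That score was among the lowest of all marked genes, at percentile 0.961. Cox7a2 had a summit of 32.1 lying 311 bp after a listed start, whereas its muscle form Cox7a1 had none, the nearest being 8877 bp away. Cox8a had summits of 74.6 and 5.92, at 241 and 1070 bp after the start, and its muscle form Cox8b had none within 16797 bp. All 3 ubiquitous genes were thus marked by a summit of their own, and 1 of 3 muscle genes was marked, by a shared one.

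The other isoforms gave the same order. Cox4i1 had summits of 111 and 110, 224 bp inside the gene and 351 bp outside it, both also in reach of Emc8 and Gm27021. Cox4i2, the form known from lung and low oxygen, had its nearest summit 14401 bp away. Cox6b1 had 41.0 and Cox7b 13.3, while Cox6b2 and Cox7b2, known from testis, had the nearest summit 11494 and 619792 bp away. Cox8c, a testis form of Cox8a, had none within 21114 bp. Ndufa4, named for complex I but placed in complex IV, had a summit of 14.1 shared with Phf14, and its relative Ndufa4l2, known as a hypoxia gene, had none. Of these 5 isoforms 0 were marked (interval 0 to 52.2), and all 12 other complex IV genes were.

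**Figure D1:**
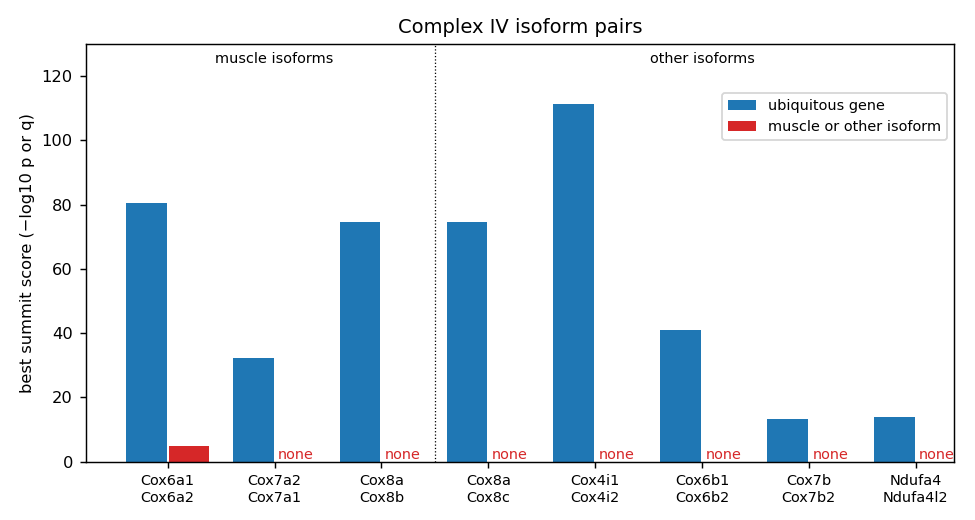
Best Sap130 summit score (−log10 p or q, from 0) of each ubiquitous complex IV gene (blue) and of its muscle or other isoform (red), with "none" where no summit marked the gene and Cox8a drawn for both of its isoforms. The blue bars run from 13.3 at Cox7b to 111 at Cox4i1, and Cox6a2, at 4.78, is the single isoform with a bar.

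Promoter sequences of these pairs are shown since the data bear on them and they differ in base content. Of the muscle forms they cover the unmarked Cox7a1 and Cox8b, and none is shown for Cox6a2, the marked one. They run from 250 bases before to 50 after a RefSeq start (300 bases, GRCm38.p6), with capitals for matches to the motifs described further on. Cox6a1 lies at chr5:115348909-115349208 (minus strand), Cox7a2 at chr9:79759804-79760103 (minus) and Cox8a at chr19:7217567-7217866 (minus). The muscle forms are Cox7a1 at chr7:30183921-30184220 (plus) and Cox8b at chr7:140900397-140900696 (minus). Cycs, of cytochrome c, lies at chr6:50566520-50566819 (minus).
Cox6a1: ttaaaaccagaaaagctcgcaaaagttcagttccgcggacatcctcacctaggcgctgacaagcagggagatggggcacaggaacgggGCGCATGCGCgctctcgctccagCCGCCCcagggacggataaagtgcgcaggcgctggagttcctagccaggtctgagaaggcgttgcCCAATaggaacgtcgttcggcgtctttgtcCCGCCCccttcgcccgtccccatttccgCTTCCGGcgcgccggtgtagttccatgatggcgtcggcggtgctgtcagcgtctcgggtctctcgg
Cox7a2: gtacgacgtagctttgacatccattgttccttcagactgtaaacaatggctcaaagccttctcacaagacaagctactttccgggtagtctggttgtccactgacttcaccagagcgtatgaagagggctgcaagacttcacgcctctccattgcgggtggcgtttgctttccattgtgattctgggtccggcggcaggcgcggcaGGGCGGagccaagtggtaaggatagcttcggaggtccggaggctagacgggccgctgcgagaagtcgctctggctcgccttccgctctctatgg
Cox8a: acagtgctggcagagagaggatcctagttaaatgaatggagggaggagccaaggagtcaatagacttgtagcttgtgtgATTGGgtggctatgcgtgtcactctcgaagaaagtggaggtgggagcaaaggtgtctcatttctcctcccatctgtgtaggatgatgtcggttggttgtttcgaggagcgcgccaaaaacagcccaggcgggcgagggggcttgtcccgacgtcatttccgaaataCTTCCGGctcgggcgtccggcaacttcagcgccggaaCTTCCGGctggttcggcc
Cox7a1: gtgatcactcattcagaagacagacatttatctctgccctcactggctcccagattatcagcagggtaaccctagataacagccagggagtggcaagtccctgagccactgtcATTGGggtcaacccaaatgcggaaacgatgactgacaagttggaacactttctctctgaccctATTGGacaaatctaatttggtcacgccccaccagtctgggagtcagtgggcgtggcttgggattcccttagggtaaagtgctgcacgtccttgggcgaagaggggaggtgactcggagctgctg
Cox8b: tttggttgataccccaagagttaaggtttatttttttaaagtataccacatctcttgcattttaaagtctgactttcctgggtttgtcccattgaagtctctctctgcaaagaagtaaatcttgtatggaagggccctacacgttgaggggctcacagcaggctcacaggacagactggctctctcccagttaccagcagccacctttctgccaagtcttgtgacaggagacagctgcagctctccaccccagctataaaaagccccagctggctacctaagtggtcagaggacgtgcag
Cycs: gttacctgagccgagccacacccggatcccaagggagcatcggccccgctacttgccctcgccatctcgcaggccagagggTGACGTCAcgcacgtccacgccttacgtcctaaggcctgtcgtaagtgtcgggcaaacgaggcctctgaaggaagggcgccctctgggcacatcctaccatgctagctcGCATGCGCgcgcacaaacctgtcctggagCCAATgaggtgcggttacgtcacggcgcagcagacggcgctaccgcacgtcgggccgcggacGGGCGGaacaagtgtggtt
The ubiquitous forms held 32, 20 and 19 CpG dinucleotides (Cox6a1, Cox7a2 and Cox8a) and the muscle forms 7 (Cox7a1) and 2 (Cox8b), while Cycs held 32. GC content was 63.0%, 56.7% and 56.0% against 53.0% and 48.3%. Over all protein-coding genes with a listed promoter, the median was 23 CpG in 9647 marked genes and 3 in 7845 unmarked ones. The 74 marked members had a median of 20 (range 5 to 43) and the 5 unmarked members with a promoter a median of 7 (range 2 to 10). CpG content thus moved with marking in the whole genome as in these pairs, and its part in the difference was not tested.

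Complex I, which oxidises NADH, had 37 of 39 subunit genes marked (94.9%, interval 82.7 to 99.4) with a median best score of 41.0. Beside this share and those of the other complexes stands 55% of all protein-coding genes. The 7 core genes, which carry the catalytic centres, had a median of 75.4 and the 30 marked accessory genes 37.0. Ndufv1, of the flavin-binding subunit that takes up electrons from NADH, had the highest score of the complex, 159, at 194 bp after its start (chr19:4007499-4012755, summit at 4012561). Ndufs1, of the large iron-sulfur subunit, had 147, but 498 bp outside the gene and 489 bp after the start of Eef1b2, a translation elongation factor gene. Of the other core genes Ndufs3 had 75.5 (shared with Kbtbd4), Ndufv2 75.4, Ndufs8 39.9 (shared with Aldh3b1) and Ndufs7 15.2. Scores among core genes therefore spanned 15.2 to 159, overlapping widely with the accessory genes (13.3 to 96.5). Of the accessory genes, which surround the core, Ndufa11 had 96.5 (shared with Vmac), Ndufa12 78.1 and Ndufb5 77.2 (shared with Mrpl47, of the mitochondrial ribosome). The lowest scores were 14.7 at Ndufa9 and 13.3 at Ndufa1, the latter 160 bp outside the gene and 176 bp after the start of Rnf113a1. Ndufab1, of the mitochondrial acyl carrier protein, had 48.2.

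All 8 Ndufaf genes, whose products help to build complex I, were marked, with a median of 85.1 that was the highest of the groups holding more than 1 gene. Ndufaf4 had 142 from a summit 144 bp after its start, in reach of no other gene. Ndufaf7, of a methyltransferase that modifies a core subunit, had 132, but 207 bp outside the gene and shared with Cebpz. Ndufaf8 had 94.0, Ndufaf3 90.7 and Ndufaf2 79.4, all shared with a neighbour, while Ndufaf6 had 60.7 from its own summit. Ndufaf5 (27.1, shared with Esf1) and Ndufaf1 (10.5, its own) were lowest. A summit of their own was found at 3 of the 8 (37.5%, interval 8.52 to 75.5, near the 42.4% of all genes), and the best summits of the other 5 were shared.

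The 4 genes of complex II, succinate dehydrogenase, were all marked. Sdhc, of a membrane anchor, had 64.9 and Sdhd, of the other anchor, 55.2. Sdha, of the flavoprotein that oxidises succinate, had 36.5 and Sdhb, of the iron-sulfur subunit, 27.9. Sdhd and Sdha shared their best summits with Timm8b and Ccdc127, and Sdhb had its own, 315 bp after the start.

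All 8 complex III genes of the symbol rule were marked, with best scores from 12.3 to 66.2. Cyc1, a complex III gene outside the rule, had 131. Uqcrq had 66.2 (shared with Gdf9), Uqcrh, of the hinge protein, 62.5 (shared with Lrrc41), Uqcr11 60.5, Uqcrc2, of a core protein, 60.1, and Uqcrfs1, of the Rieske iron-sulfur protein, 59.4. Uqcrc1, of the other core protein, had 53.6 and Uqcrb 41.2 (shared with Gm10767). Uqcr10 stood below them at 12.3 (shared with Zmat5), so 4 of the 8 best summits were shared. The best summit of Uqcrh lay past the start of Lrrc41, and the summit past its own start had 13.0. Cycs, whose protein carries electrons from complex III to IV and also starts apoptosis when released, had summits of 83.7 and 11.7, at 242 bp after and 288 bp before its start.

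In complex IV, cytochrome c oxidase, Cox5a had the highest score, 127, from its own summit 209 bp after a listed start. Cox5b had 89.4 at 241 bp after the start. Cox6c had 54.0, Cox7a2l, of a factor that joins complexes III and IV, 31.1, and Cox7c 23.9. Cox7b, at 13.3, and Ndufa4, at 14.1, were the lowest of the ubiquitous forms, which ran from there to 127 with a median of 47.5.

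All 17 ATP synthase genes were marked (interval 80.5 to 100), against 55% of all protein-coding genes, with a median best score of 57.4. Of them 8 (47.1%) reached the upper quartile of all summits, as did 31 of the 97 members (32.0%) and 19.5% of all protein-coding genes. Atp5pb, of subunit b of the stator stalk, had the highest score of all 97 genes, 167, from a summit 424 bp before its start and 189 bp after that of Wdr77. It had another of 74.8 at 203 bp after its own start. Atp5h, of stator subunit d, had 105 (shared with Kctd2) and Atp5md 96.5 (shared with Pdcd11). Of the catalytic head, Atp5b (beta) had 93.9, Atp5a1 (alpha) 87.7 (shared with Haus1), Atp5c1 (gamma) 51.0 (shared with Kin), Atp5d (delta) 41.1 and Atp5e (epsilon) 36.8. Atp5o, of the subunit that joins head and stalk, had 87.1. The 3 genes Atp5g1, Atp5g2 and Atp5g3 encode the same mature c subunit of the rotor, and they differed: Atp5g1 had 122, Atp5g3 78.4 and Atp5g2 26.6. Each was from its own summit, at 117, 218 and 204 bp after the start. Atp5k had the lowest score after Atp5g2, 35.4.

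**Figure D2:**
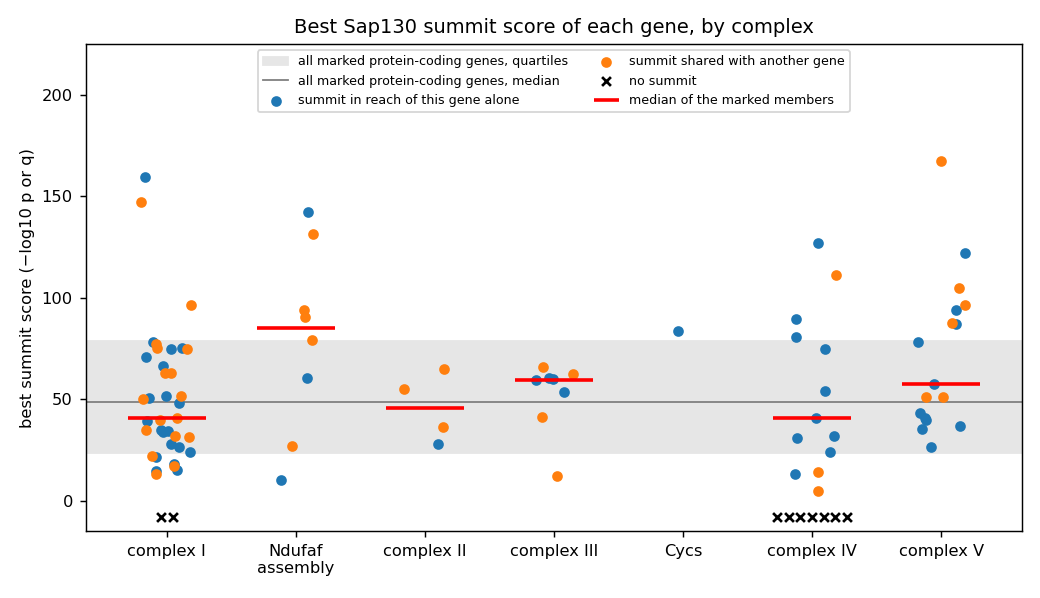
Best Sap130 summit score (−log10 p or q, linear axis) of each gene by complex: blue points are summits in reach of that gene alone, orange points are shared with another protein-coding gene, crosses are unmarked genes drawn below 0, and red bars are medians of the marked genes. The grey band and line give the quartiles (23.9 and 78.6) and median (48.9) of all marked protein-coding genes, and the group medians lie inside the band except those of the Ndufaf genes (85.1) and of Cycs alone (83.7).

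The summits sat at a narrow distance past the start. The promoter table gave strand and start for 79 of the 97 genes, 74 of them marked. For the 45 whose best summit was in reach of no other gene, it lay at a median of 197 bp after the start (quartiles 173 and 241, range 91 to 435). Over all genes with such a summit of their own the median was 193 bp with wider quartiles of 132 and 267. Between 100 and 300 bp after the start lay 39 of the 45 (86.7%), against 61.9% of 7129 genes in all. Gene length differed, with a median of 7177 bp for the 97 members and 17217 bp for all protein-coding genes. Its part in the narrower spread was not tested. The mitochondrial ribosomal protein genes had nearly the same share, 32 of 37 (86.5%), with quartiles of 140 and 215 bp. No member's best summit lay from 150 bp before to 50 bp after a start, and 3 of 74 fell inside the 300-base promoter window. For Cox5a, Cox7a2, Atp5g3, Atp5d and Ndufa13 the best summit was more than 1000 bp from both ends of the annotated gene. These 5 had a listed start within the gene, and the summit lay 209, 311, 218, 191 and 531 bp after it.

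**Figure D3:**
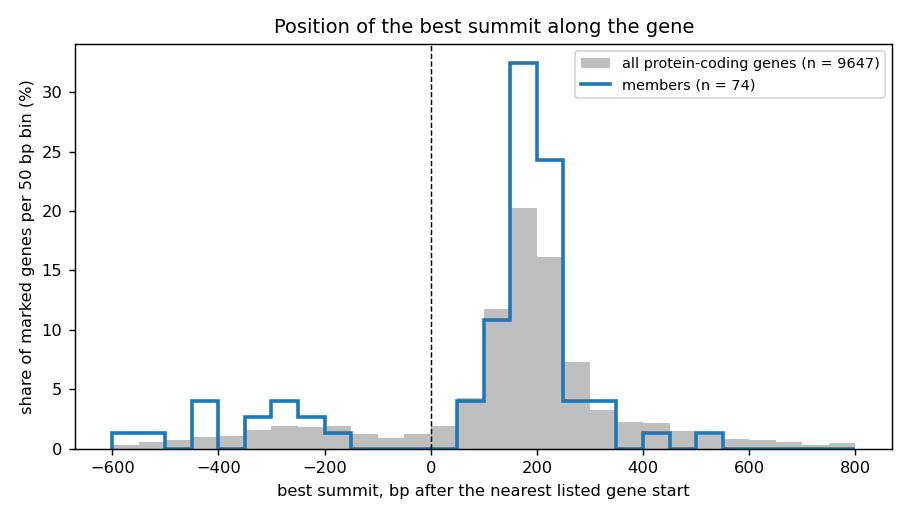
Distance of the best summit from the nearest listed start (bp, positive inside the gene) against the share of marked genes in each 50 bp bin, for 74 members (blue line) and 9647 protein-coding genes (grey). The bins from 150 to 250 bp hold 32.4% and 24.3% of the members, and 20.2% and 16.2% of all genes.

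Many of these genes start next to another gene. The best summit was shared with another protein-coding gene in 38 of 88 marked members (43.2%), against 25.4% of all marked genes. A start of another protein-coding gene on the opposite strand, pointing away and within 1000 bp, was listed for 22 of 79 members (27.8%, interval 18.3 to 39.1), 1402 of 9647 marked genes (14.5%) and 8.48% of all 17492. The starts of the 22 pairs were 10 to 454 bp apart. Partners included Timm8b, of mitochondrial import (Sdhd), Mrpl47 (Ndufb5), Rps28, of the cytoplasmic ribosome (Ndufa7), and Gabpa, an ETS factor known to control respiratory chain genes (Atp5j).

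At such pairs the summits lay past one start or the other, rarely between them. Of 29 summits at the 22 members, 15 lay on the member's side, 13 on the partner's side and 1 between the starts (Ndufa5 and Asb15). Both sides were occupied at 6 members: Sdhd had 34.5 on its own side and 55.2 on that of Timm8b, Atp5pb 74.8 and 167 (Wdr77), Ndufaf8 94.0 and 27.5 (Tepsin), Atp5c1 51.0 and 39.2 (Kin), Uqcrh 13.0 and 62.5 (Lrrc41), and Ndufb3 8.39 and 17.4 (Fam126b). In 4 of the 6 the partner's side was the higher. For 7 members the summits lay on the partner's side alone: Ndufa7, Ndufa11, Ndufb1, Ndufaf2, Atp5md, Atp5h and Atp5j. These are marked by a summit inside or next to another gene, and the data cannot assign it. At Atp5j the summit (51.3) was 362 bp after the Gabpa start and also 139 bp after a further listed start of Atp5j.

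**Figure D4:**
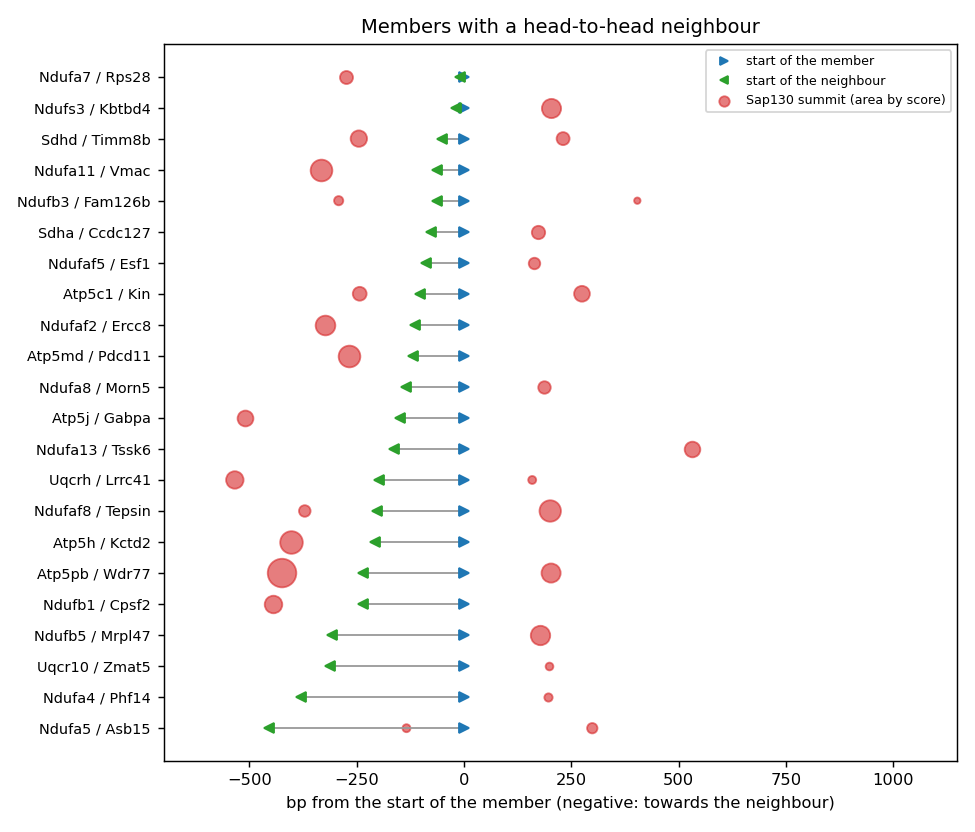
Positions (bp from the member's start at 0, negative towards the neighbour) of the starts of 22 members (blue) and their head-to-head neighbours (green) and of Sap130 summits (red, area proportional to score), ordered by the gap between starts. Summits lie on the member's side (15), on the partner's side (13) or between (1). For members with several listed starts, the start nearest the neighbour's is drawn.

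A second summit was found at other members too. In all, 18 of 88 marked members had 2 summits (20.5%), against 28.9% of all marked genes with 2 or more. Atp5b had 93.9 and 19.0, Atp5l 43.4 and 11.4, and Ndufa2 51.9 and 23.8. Ndufs8 had 39.9 and 14.5, Ndufb11 41.0 and 17.0, Atp5a1 87.7 and 8.22, and Ndufa5 22.0 and 13.1. At Atp5d the summits were 41.1 and 35.6, the latter 271 bp after the start of Cbarp. At Ndufb6 they were 51.8 at its start and 46.3 at its far end, 896 bp outside and in reach of Smim27 and Topors.

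Promoters of respiratory chain genes are known for sites of NRF1 and of ETS factors such as GABP, with YY1, Sp1 and CREB. Motifs were searched on both strands of the 300-base window: GCATGCGC (NRF1 core), a longer NRF1 word that has GC in front of the core and so overlaps it, CCGGAAG (ETS), AAGATGG (YY1), GGGCGG (Sp1), CCAAT (NF-Y), TGACGTCA (CRE) and CACGTG (E-box). The NRF1 core was in 13 of 79 members' promoters (16.5%, interval 9.06 to 26.5), 5.94% of those of all marked genes and 3.62% of all promoters. The longer NRF1 word was in 7 (8.86%), against 2.32% and 1.37%. YY1 words were in 11 (13.9%), against 7.48% and 6.41%, and ETS words in 18 (22.8%), against 19.6% and 12.3%. Sp1 words went the other way, with 36 (45.6%) against 69.9% of marked genes and 47.5% of all. NF-Y words were in 35 (44.3%), against 37.7% of marked genes and 38.4% of all promoters. E-boxes were in 6 (7.59%), against 10.8% and 8.03%, and CRE words in 5 (6.33%), against 3.48% and 2.33%. In the promoters of 69 mitochondrial ribosomal protein genes the NRF1 core was in 11.6% (interval 5.14 to 21.6), ETS words in 36.2% and YY1 words in 18.8%, the latter 2 shares being above those of the respiratory chain genes. A match is a description of the letters, not a bound site.

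Among the printed promoters, Cox6a1 had the NRF1 word at 162 bases before the start, Sp1 words, a CCAAT and an ETS word at 16 bases before it. Cox8a had a CCAAT at 171 bases before the start and ETS words at 5 bases before and 32 after it. Cox7a2 had an Sp1 word only. The muscle promoter Cox7a1 had 2 CCAAT words, and Cox8b none of the 8. In Cycs a CRE word began 169 bases, the NRF1 core 60 bases and a CCAAT 31 bases before the start. An Sp1 word began 31 bases after the Cycs start. The 5 unmarked members with a promoter held no NRF1, ETS, YY1, CRE or E-box word (interval 0 to 52.2 for each). Of these 5, 3 had a CCAAT and 2 an Sp1 word. Most of the 74 marked members lacked each of the former words too. The NRF1 core was in 17.6% of them, ETS in 24.3%, YY1 in 14.9%, CRE in 6.76% and E-boxes in 8.11%. So few unmarked promoters cannot show a difference. The median best score of the marked members was higher with than without the NRF1 core (53.6 in 13 and 48.2 in 61 members), an ETS word (53.5 and 44.6), an Sp1 word (59.1 and 40.5), a CRE word (66.6 in 5 and 43.4 in 69) or an E-box (100.4 in 6 and 44.6 in 68). It was lower with a CCAAT (46.8 and 49.8) or a YY1 word (27.9 in 11 and 51.8 in 63). Over all marked genes the order was the same except for YY1 (57.4 with and 49.7 without) and NF-Y (50.6 and 49.8). These differences were not tested.

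**Figure D5:**
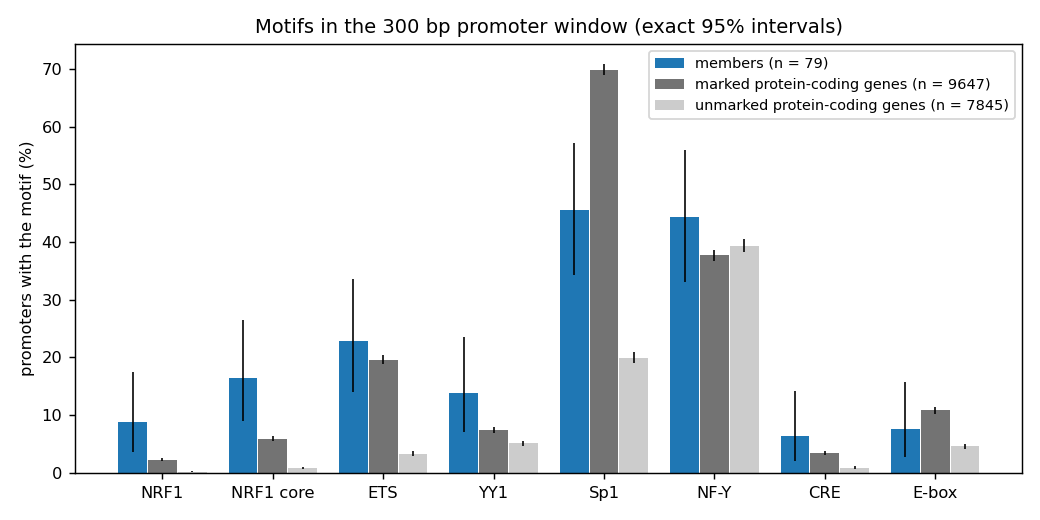
Share of 300 bp promoters (%, bars from 0, exact 95% intervals) holding each motif for 79 members (blue), 9647 marked (dark grey) and 7845 unmarked (light grey) protein-coding genes. The members' bars are above those of all marked genes for the NRF1 core (16.5% against 5.94%) and below them for Sp1 (45.6% against 69.9%).

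Genes that assemble or control the chain under other symbols were marked as well. Of 61 such genes 60 were marked (98.4%, interval 91.2 to 99.96), against 55% of all protein-coding genes. Their median best score was 54.2, against 48.9 for all marked genes. The exception was Cyct, the testis cytochrome c gene, with the nearest summit 9715 bp away. The highest scores were 204 at Pprc1, a coactivator related to PGC-1, 141 at Yy1, 136 at Cmc2 (shared with Cenpn), 131 at Cyc1, of the cytochrome c1 subunit of complex III, and 100 at Ecsit, of complex I assembly. Of the factors that act on these promoters, Nrf1 had 71.3, Gabpb1 62.0, Gabpa 51.3 (shared with Atp5j) and Esrra 34.3 (shared with Catsperz), and the coactivator gene Ppargc1a 30.7. Tfam, of mitochondrial DNA packaging and transcription, had 66.0.

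Beside related gene groups, the share marked was 78 of 78 mitochondrial ribosomal protein genes and 31 of 32 glycolysis and citric acid cycle genes (96.9%). Of all protein-coding genes 55% were marked. Both groups were above the 90.7% of the respiratory chain genes, so frequent marking was not particular to the respiratory chain. The median best scores of the related groups were 55.3 and 65.2. Their quartiles, 31.7 to 75.4 and 48.5 to 96.7, both overlapped those of the respiratory chain genes. The unmarked gene of the latter group was Pgam2, the muscle phosphoglycerate mutase. Head-to-head starts were also frequent at the ribosomal protein genes, 24 of 69 (34.8%, interval 23.7 to 47.2). No test of these differences was made.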

How the data were processed

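Per the submitters' processing notes, reads were processed with Bowtie 1.1.2 (an aligner) and MACS2 2.1.0.20140616 (a peak caller) on build GRCm38 (mm10). The sources used here give no parameters, thresholds or treatment of duplicates. The deposited file lists 14886 summits of 1 base with a score, which the authors deposited as a −log10 p-value or q-value. Which of them it is could not be settled, and depth is unknown.

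Genes came from a RefSeq table of GRCm38.p6 without strand. Of 21900 protein-coding genes 121 were left out: mitochondrial or unplaced genes, and genes listed below 3 Mb on any chromosome but Y, where scaffold genes appear. Starts, strands and sequences came from the RefSeq promoter table (17492 genes, 79 members). For genes with several starts, the one nearest the best summit was used. In the comparison of head-to-head pairs the start nearest the partner's start was used instead.

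The members and lists were chosen with earlier results of these data known. The rule named all unmarked members and isoform genes, complex II, Cycs, and the 5 highest and 3 lowest scores per complex. Members with 2 summits and the genes nearest the distance limit were also named. The rule allowed up to 6 promoters: of the isoform pairs and of the highest-scoring genes of the complexes. After the 5 of the isoform pairs, Cycs, a group of 1 gene, was taken as the last, with its values known. Genes named outside the rule for their roles, such as Ndufab1, Ndufs3, Ndufs8, Atp5o and the transcription factors, were chosen after their values were seen. Alternatives were windows of 500 and 2500 bp, score filters, merging within 500 bp, unshared summits, gene ends alone and listed starts alone. Some items that the rule covers are not reported here. The gene call was tested on simulated summits. The software was matplotlib 3.10.9, pandas 2.3.3, scipy 1.17.1 and numpy 2.4.6 under Python 3.11.15.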

Additional observations from a re-analysis of the deposited data

Results flagged for a closer look

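The mitochondrial genome, which encodes further subunits of complexes I, III, IV and ATP synthase, lay outside the comparisons above, yet the list held 5 summits on it. No expected count was computed for them. Their scores were low: 7.44 at position 15436, outside any annotated gene, 6.89 at position 13667 in ND6, 3.83 at 4159 in ND2, 3.65 at 12018 in ND5 and 3.56 at 459 in the ribosomal RNA gene mt-Rnr1. ND2, ND5 and ND6 encode complex I subunits. All 5 were below 23.9, the lower quartile of best scores of marked nuclear genes.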

How the results depend on the processing

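The count of marked members was 88 with windows of 500 and 2500 bp and with summits within 500 bp merged, and the same 88 genes were marked under each. It was 83 with gene ends alone and 74 of the 79 genes with a listed start. With shared summits left out it was 51. That setting left 20 complex I subunit genes marked (51.3%), 3 Ndufaf genes (37.5%), 1 of complex II (25%) and 4 of complex III (50%). It left 0 muscle isoforms and 37 of the 61 assembly and control genes (60.7%). Of all protein-coding genes 42.4% were marked so. With summits at or above the median score, 7 complex IV genes (35%), 0 muscle isoforms and 7783 of the other protein-coding genes (35.9%) were marked. The members' median best score was then 63.2. With summits at or above the upper quartile of scores, 31 members were marked: 11 complex I subunit genes, 5 Ndufaf genes, 0 of complex II, 1 of complex III, 5 of complex IV and 8 of complex V, with 0 muscle isoforms, a median best score of 87.7, 22 assembly and control genes and 4219 other genes. With listed starts alone, 5 of 5 complex III genes and 0 of 2 muscle isoforms were marked, against 52.2% of all genes with a listed start. These counts fall by construction, since fewer summits or genes enter. The other 74 alternative values stayed within 1.5 times the main count or within the median's 95% interval (41.0 to 62.5). After seeing the data, the members were counted without Ndufb4b and Ndufb4c (88 of 95) and the background over genes with a curated transcript outside the Olfr and Vmn families (60.7% marked). No paired analysis was possible because there was 1 ChIP and 1 input library. Depth is unknown, so a gene without a summit may hold Sap130 below the detection limit of this library.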
